A study of Mus musculus with 16 samples.

Results

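Tuft cell markers were examined in 3 RNA-seq experiments on loss of Cul4b in the mouse small intestine. The 9 markers were Dclk1, Trpm5, Pou2f3, Gfi1b, Il25, Alox5ap, Sh2d6, Rgs13 and Ptgs1, taken by gene symbol from the deposited count tables. All 9 were found among the 52525 genes that the 3 tables share.

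The series held 16 libraries from C57BL/6 mice. Freshly isolated crypts came from 4 WT (Cul4b fn/Y) and 4 KO IEC (pVillin-Cre; Cul4b fn/Y) samples, in which Cre is driven by the Villin promoter and so acts along the whole intestinal epithelium. Organoids came from 2 WT and 2 KO IEC samples of that same cross. A further 2 WT and 2 KO CAG organoid samples used CAG-CreERT2 with the floxed Cul4b allele, a ubiquitous Cre that is switched on by tamoxifen or its active form 4-OHT, and the labels do not say whether the WT cultures of that experiment carried the Cre or received the drug. All groups with a knockout were male by genotype (Y), no age was given in the labels, and nothing stated which organoid cultures came from separate mice, so that p-values measure the spread between these samples.

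Tuft cells are rare chemosensory cells of the secretory epithelium. They sense luminal metabolites and parasites through a taste-type cascade that ends in the cation channel TRPM5, and they answer with interleukin 25, leukotrienes and prostaglandins, which act on innate lymphoid cells. Their formation depends on the POU-domain transcription factor POU2F3, and interleukin 13 made by the lymphoid cells increases their number in turn. In bulk RNA from crypts or organoids, fewer tuft cells and less RNA per tuft cell cannot be told apart.

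The depth of the libraries ranged from 9311734 to 13479974 counts in crypts, from 15006730 to 16881395 in the IEC organoids and from 7348191 to 10462275 in the CAG organoids. Values below are CPM, read counts relative to library size, after scaling by trimmed mean of M values (TMM). A count of 3, the limit that a count of 0 allows, corresponded to between 0.22 and 0.32 CPM in the crypt libraries.

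Some libraries stood apart from the rest of their group. Crypt KO IEC replicate 4 had the highest CPM of all 8 crypt libraries for each of the 7 markers that passed the low-count filter, and IEC organoid KO replicate 2 was the highest of 4 for the same 7. In crypts, RNA of the mitochondrial ribosome (mt-Rnr1 and mt-Rnr2) was 22.8, 2740, 2737 and 833 CPM in WT replicates 1 to 4 and 18.6, 20.996, 27.6 and 1107 CPM in KO IEC replicates 1 to 4, so that the 2 highest libraries were both WT and 3 of the 4 lowest were KO. Its part in the results was not tested beyond the fit that includes it as a term. The replicate 4 libraries of both genotypes were alone in lying between, at 833 and 1107 CPM. WT replicate 4 also had the highest sum of the 9 tuft markers among the WT crypt libraries (54.1 CPM). In IEC organoid KO replicate 2 the stem cell marker Olfm4 was at 13.7 CPM, against 1761 and 2820 CPM in the WT libraries and 1019 CPM in KO replicate 1. Crypt KO replicate 3 stood apart more widely, with 317 of 13424 tested gene symbols (2.36%) at least 3 times the median of the other 7 libraries, but none of the tested tuft markers was among them.

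The labels were first checked on the targeted gene. Cul4b (ENSMUSG00000031095, chrX:38533274-38576196) was at 31.7, 33.2, 38.3 and 32.3 CPM in WT crypts and at 1.69, 0.993, 0.848 and 2.21 CPM in KO IEC crypts. In IEC organoids it was at 83.2 and 73.2 CPM in WT and 1.69 and 1.76 CPM in KO. In CAG organoids it was at 72.9 and 70.1 CPM in WT and 3.34 and 5.19 CPM in KO. The groups did not overlap in any experiment, and the log2 fold changes were -4.56 ± 0.25, -5.50 ± 0.22 and -4.02 ± 0.16 (SE of the edgeR fit), with adjusted p-values of 0.000169, 0.0311 and 1.93e-06 by edgeR's quasi-likelihood test. The epithelial keratin Krt8 was abundant throughout, from 1936 to 4151 CPM, while the T cell genes Gzma and Cd8a had 0 counts in every organoid library.

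The 9 markers lie on 8 chromosomes (GRCm38). The cascade is represented by Trpm5 (ENSMUSG00000009246, chr7:143069153-143094642), the calcium-activated channel that depolarises the cell, and by Rgs13 (ENSMUSG00000051079, chr1:144138654-144177372), a regulator of G protein signalling. The regulators are Pou2f3 (ENSMUSG00000032015, chr9:43123939-43210369), the lineage-defining factor, and Gfi1b (ENSMUSG00000026815, chr2:28609450-28621982), a zinc finger repressor. The effectors are Il25 (ENSMUSG00000040770, chr14:54932695-54935837), the cytokine, Alox5ap (ENSMUSG00000060063, chr5:149264767-149288153), which presents arachidonic acid to 5-lipoxygenase for leukotriene synthesis, and Ptgs1 (ENSMUSG00000047250, chr2:36230426-36252272), the cyclooxygenase COX-1 of prostaglandin synthesis. Dclk1 (ENSMUSG00000027797, chr3:55242364-55539068), a microtubule-associated kinase, and Sh2d6 (ENSMUSG00000052631, chr6:72513644-72521634), an SH2 domain adaptor, complete the set as cell markers. Counts are sums over a gene's exons, so these positions span the whole gene. Trpm5, Alox5ap and Ptgs1 each overlap a gene on the other strand and Dclk1 overlaps 6 genes of either strand in GENCODE M21. Whether strand was used in counting is not given in the sources used here, so reads from such overlaps cannot be told apart.

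Because POU2F3 recognises the octamer ATGCAAAT, the 300-base windows that RefSeq gives around each gene's start (250 bases before to 50 after, GRCm38.p6) were searched for these 8 letters on both strands. Windows were found for 6 of the 9 markers (Dclk1, with 2 starts, and Trpm5, Gfi1b, Sh2d6, Rgs13 and Ptgs1), and none of their 7 windows held the octamer. It occurred in 1.97% of all 27025 genes with a window, and in 8 of the 47 genes (17%) of the wider tuft lists described below that had one. These lists were not drawn at random, so the share is a description of them and of this window only. The upstream stretches of the channel Trpm5, of the adaptor Sh2d6 and of Ptgs1, the single marker called in any experiment, are shown from base -120 to -1 before the RefSeq start in lower case. For Sh2d6 that start lies within the gene's span in the count tables.
Trpm5 (chr7:143094643-143094762, minus strand): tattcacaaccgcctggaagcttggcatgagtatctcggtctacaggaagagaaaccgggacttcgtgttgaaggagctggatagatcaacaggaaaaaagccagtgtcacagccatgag
Sh2d6 (chr6:72520037-72520156, minus strand): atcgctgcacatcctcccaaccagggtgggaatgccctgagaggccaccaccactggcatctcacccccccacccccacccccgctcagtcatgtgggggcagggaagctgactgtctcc
Ptgs1 (chr2:36230306-36230425, plus strand): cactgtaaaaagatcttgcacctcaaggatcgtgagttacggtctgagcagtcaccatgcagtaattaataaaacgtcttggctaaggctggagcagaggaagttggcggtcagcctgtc
Below are 4 stretches that do hold the octamer, in capitals, from genes chosen after their values were seen, each at least 3 times as high in crypt KO IEC replicate 4 as in the median of the other 7. Of the other 4 genes with the octamer, Itpr3 (0.89 times), Il4ra (1.38 times), Il33 (1.71 times) and Nradd (0.68 times) were below 3 times that median. Over all 41 tested genes of the wider tuft lists, with or without the octamer, 19 were at least 3 times that median. Whether the octamer had a part in these levels was not tested.
1810046K07Rik (chr9:51328971-51329030, minus strand): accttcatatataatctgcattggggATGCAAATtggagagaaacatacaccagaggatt
Kctd12 (chr14:102982764-102982823, minus strand): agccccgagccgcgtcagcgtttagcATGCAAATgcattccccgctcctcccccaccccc
Hpgds (chr6:65144871-65144930, minus strand): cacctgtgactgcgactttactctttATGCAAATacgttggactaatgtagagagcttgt
Sucnr1 (chr3:60081795-60081854, plus strand): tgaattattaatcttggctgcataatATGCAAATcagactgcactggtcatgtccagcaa
The octamer begins 86 bases before the start of 1810046K07Rik, the gene of a POU2F3 coactivator, 160 before that of Kctd12, a GABA-B receptor subunit, 174 before that of Hpgds, the prostaglandin D2 synthase, and 48 before that of Sucnr1, the succinate receptor.

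Per length, the markers were ordered much alike in the WT groups of all 3 experiments, with Sh2d6 at the top and Gfi1b and Il25 at the bottom. In WT crypts Sh2d6 reached 5.05 ± 1.18 CPM per kilobase (SD, n = 4), all 4 libraries lying above those of the next gene. Trpm5 (2.21 ± 0.32), Rgs13 (2.15 ± 0.99) and Alox5ap (1.37 ± 0.24) followed, and neighbours in this order overlapped between libraries. Pou2f3 (1.02 ± 0.19), Dclk1 (0.663 ± 0.160) and Ptgs1 (0.287 ± 0.210) were lower, again with overlap between neighbours. Gfi1b at 0.155 ± 0.083 and Il25 at 0.105 ± 0.084 CPM per kilobase closed the order. In WT organoids of both experiments Pou2f3, Alox5ap, Dclk1 and Ptgs1 did not overlap with their next lower neighbours, although n = 2 in each group. The highest WT levels were 2.27 ± 1.15 CPM per kilobase for Sh2d6 in the IEC organoids and 4.21 ± 0.17 in the CAG organoids (SD, n = 2). In the IEC organoids Sh2d6 overlapped with the next gene, Rgs13 (1.99 ± 0.25), so its top place there holds for the mean only.

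The first comparison asked whether the tuft markers differ between crypts with and without epithelial Cul4b. All 7 markers that passed the filter had a higher mean in KO IEC than in WT crypts, and none passed the test. At an adjusted p under 0.05, edgeR called 0 of these 7, against 934 of all 13427 tested genes (6.96%), of which 577 were higher (4.3%) and 357 lower (2.66%). At an unadjusted p under 0.05 only Ptgs1 passed, beside 31.9% of all tested genes, and the DESeq2 Wald test called none of them. The median log2 fold change of the 7 was 1.12, beside -0.01 over all tested genes, and without KO IEC replicate 4 it was 0.17.

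Within the cascade, Trpm5 was at 13.8, 12.1, 13.7 and 16.96 CPM in WT and at 14.2, 12.7, 20.7 and 75.4 CPM in KO IEC crypts. KO replicates 1 and 2 lay within the WT range, KO replicate 3 was above it, and KO replicate 4 was 3.64 times the next highest library of either genotype. The log2 fold change was 1.12 ± 0.53 with an adjusted p of 0.177 by edgeR, and 0.17 with an adjusted p of 0.592 without KO replicate 4. Rgs13 was at 2.51, 3.77, 2.16 and 5.79 CPM in WT and at 2.54, 3.51, 5.94 and 24.2 CPM in KO IEC crypts. Here the third KO library was also marginally above every WT library, but the groups overlapped. Its log2 fold change of 1.34 ± 0.68 had an adjusted p of 0.206 by edgeR, and was 0.17 without KO replicate 4.

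Among the regulators, Pou2f3 was at 3.40, 3.77, 2.40 and 2.97 CPM in WT and at 2.11, 2.29, 2.12 and 10.6 CPM in KO IEC crypts. Thus 3 of the 4 KO libraries were below the lowest WT library and the fourth was above the highest. The log2 fold change of 0.45 ± 0.54 (edgeR adjusted p = 0.582) turned to -0.51 without KO replicate 4, with an adjusted p of 0.182. Gfi1b did not pass the filter: its raw counts were 5, 3, 1 and 4 in WT and 0, 8, 8 and 14 in KO IEC. Most of these are near the limit of 3 counts, the highest again in KO replicate 4, and the exact permutation test over the 8 libraries gave p = 0.2 (two-sided).

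Of the effectors, Il25 was barely detected, with 2, 2, 0 and 1 counts in WT and 0, 2, 0 and 6 in KO IEC crypts, and no difference was detectable at this depth. Alox5ap was at 1.79, 1.60, 2.00 and 2.41 CPM in WT and at 2.22, 0.916, 2.12 and 11.7 CPM in KO IEC. KO replicate 2 was the lowest of all libraries and KO replicate 4 the highest, the other KO libraries falling within the WT range. The log2 fold change was 1.11 ± 0.68 (edgeR adjusted p = 0.286), and -0.18 without KO replicate 4. Ptgs1 was at 1.16, 0.566, 0.480 and 2.25 CPM in WT and at 1.27, 1.30, 2.65 and 9.56 CPM in KO IEC. It came nearest to the threshold, 2 KO libraries being above the highest WT library, with a log2 fold change of 1.71 ± 0.75 and an adjusted p of 0.15 by edgeR (0.62 and 0.477 without KO replicate 4).

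The cell markers Dclk1 and Sh2d6 gave the same picture. Dclk1 was at 8.78, 9.90, 8.24 and 13.7 CPM in WT and at 9.62, 10.7, 13.9 and 53.9 CPM in KO IEC crypts. Sh2d6 was at 11.1, 7.92, 6.40 and 9.65 CPM in WT and at 8.67, 8.32, 12.9 and 55.7 CPM in KO IEC. For both genes KO replicate 4 was about 4 times the next highest library (3.88 for Dclk1, 4.31 for Sh2d6), while KO replicates 1 and 2 lay within the WT range. The log2 fold changes were 1.12 ± 0.53 and 1.29 ± 0.59 with edgeR adjusted p-values of 0.181 and 0.168, and they were 0.17 and 0.19 without KO replicate 4. Exact permutation of the 8 library labels, which cannot go below p = 0.0286 (two-sided), gave 0.229 for Dclk1, 0.257 for Trpm5 and Sh2d6, 0.343 for Rgs13, 0.171 for Ptgs1, 0.686 for Alox5ap and 1 for Pou2f3.

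**Figure D1:**
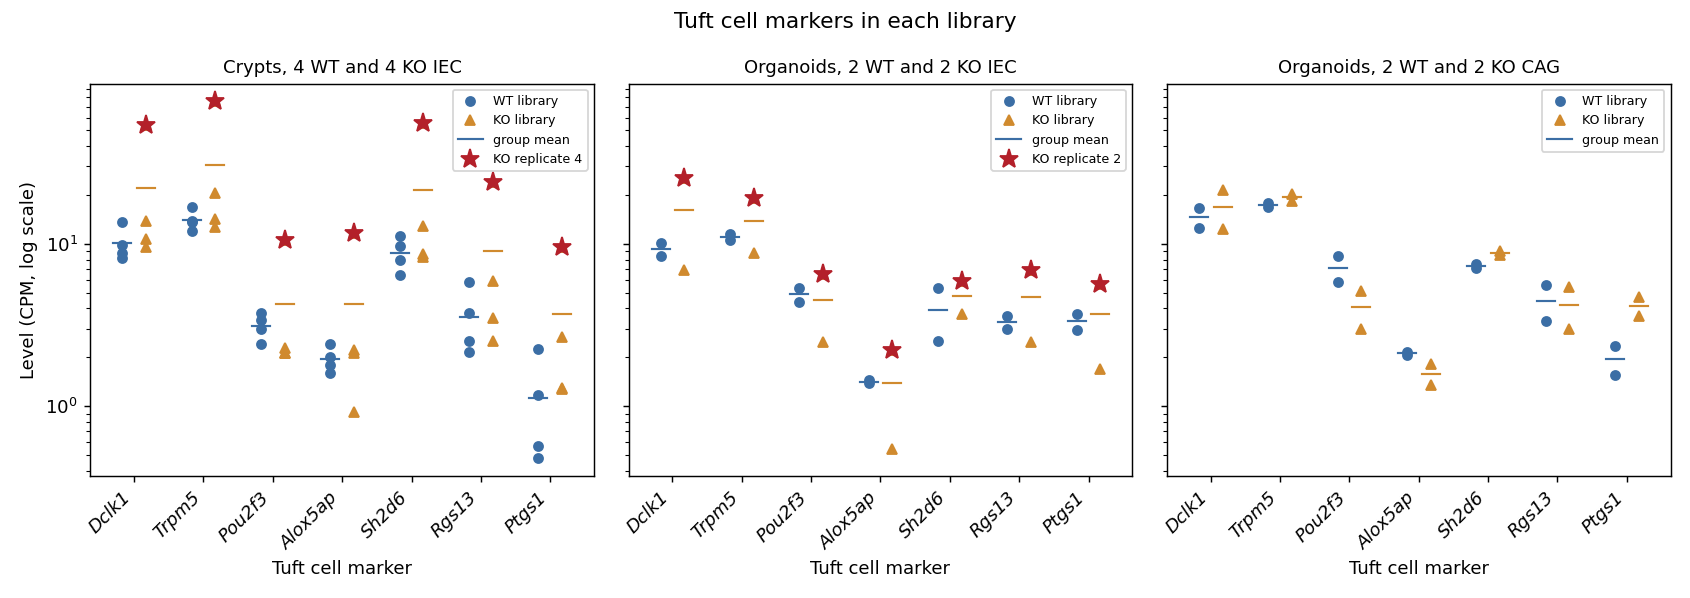
Level in CPM (log scale) of the 7 markers that passed the low-count filter, for every library of the 3 experiments, with WT as circles, KO as triangles and short lines at the group means. The stars mark crypt KO replicate 4, which lies above all other crypt libraries for every marker (75.4 CPM for Trpm5), and IEC organoid KO replicate 2, which is the highest of its 4 libraries.

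In KO IEC replicate 4 the markers stood at 4.41 (Pou2f3) to 7.54 times (Ptgs1) the median of the other 7 crypt libraries, with a median of 5.84. All 7 were at least 3 times that median in this library, beside 248 of 13424 tested gene symbols (1.85%). In each of the other 7 libraries none of the 7 reached 3 times the median of the rest. The ratio of each marker to Trpm5 in KO replicate 4 stayed inside the range of the other libraries, for instance 0.71 for Dclk1 (0.60 to 0.84 over all 8), 0.74 for Sh2d6 (0.47 to 0.81) and 0.14 for Pou2f3 (0.10 to 0.31). Against the WT libraries alone, the ratio of Pou2f3 was below all of them (0.18 to 0.31). That of Alox5ap (0.155) was above all of them (0.130 to 0.146), and those of the other markers lay inside the WT range. Some of these ranges are wide, so the ratios do not show that all markers rose in the same proportion. Over the 21 pairs of these 7 markers, Pearson's r of log2 CPM had a median of 0.91 (n = 8 libraries) and of 0.57 without KO replicate 4 (n = 7), as a description of libraries that also share depth and tissue.

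Genes of other cell types were read in the same libraries. The summed level of the 9 tuft markers was 43.2, 40.1, 35.4 and 54.1 CPM in WT and 40.6, 40.5, 61.2 and 242.8 CPM in KO IEC crypts. That of 8 T cell and intraepithelial lymphocyte markers was 79.4, 62.5, 18.5 and 108.4 CPM in WT and 51.7, 73.7, 371.9 and 187.2 CPM in KO IEC. The T cell list was therefore highest in KO replicate 3, led by Gzma at 195 CPM, and next in KO replicate 4 (93.8 CPM Gzma). None of its 8 genes was called, 0 were highest in KO replicate 4, and 3 were at least 3 times the median of the other libraries there. The mast cell list was highest in WT replicate 1 (105.2 CPM, with 57.0 CPM of Mcpt1) and second in KO replicate 4 (57.4 CPM), most of it the receptor Kit and Mcpt1. Kit was not particular to mast cells here, being at 22.7 to 33.6 CPM in IEC organoids, where Cpa3 and Mcpt1 had no counts. The B cell list was at 19.7 CPM in KO replicate 4, inside the range of 17.6 to 48.7 CPM. The myeloid list was lowest there (10.9 CPM, most abundant gene per length Cd68). It was lower in every KO library (at most 14.4 CPM) than in every WT library (at least 17.1 CPM). Markers of enteric neurons and glia summed to 1.65 CPM or less in every KO library and to 2.01 CPM or more in WT. Stromal markers summed to 4.87 CPM or less in KO and 5.06 CPM or more in WT. Exact permutation gave p = 0.0286 (two-sided) for the myeloid, neural and stromal lists alike, the smallest value it can give here. It gave 0.257 for B cell, 0.286 for T cell, 0.514 for mast cell and 0.6 for megakaryocyte and erythroid markers. For the epithelial and cycling lists it gave 0.0571 to 0.714. These p-values were not adjusted for the number of lists. In the neural list 3 of 7 genes had at most 3 counts in every library. Within the epithelium, KO replicate 4 also had the highest levels of Clca1 (3036 CPM), a goblet cell protein, and Ang4 (3002 CPM), an antimicrobial ribonuclease of Paneth cells, against at most 1217 and 969.8 CPM in the other crypt libraries. Of the whole lists, 3 of 6 goblet and 2 of 5 Paneth markers were highest in KO replicate 4, and 1 of each list was at least 3 times the median of the other libraries there. The enterocyte list was highest there too, at 15410 CPM against 14636 CPM in KO replicate 3. The part of these genes and cell types in the tuft marker levels was not tested.

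**Figure D2:**
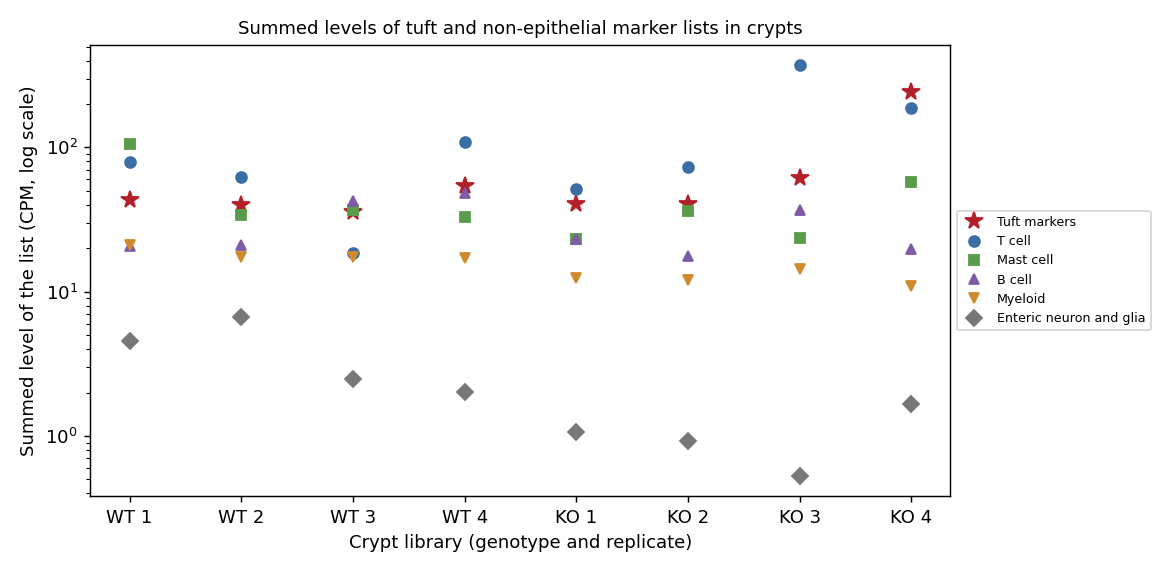
Summed CPM (log scale) of the tuft markers and of 5 lists chosen as non-epithelial markers in each of the 8 crypt libraries. The mast cell list includes Kit, which was also present in organoids, where Cpa3 and Mcpt1 had no counts. The tuft markers peak in KO replicate 4 (242.8 CPM), the T cell markers in KO replicate 3 (371.9 CPM) and the mast cell markers in WT replicate 1 (105.2 CPM).

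Other genes linked to tuft cells were taken from 5 wider lists of 61 genes, 58 of which were in the tables. The lists include genes that are not particular to tuft cells, such as Il13 of the lymphoid cells, Il4ra, Il13ra1, Sox9 and Cd24a. A change in a gene of these lists is therefore not by itself a change in tuft cells. Of the 41 tested in crypts, edgeR called 3 higher and 0 lower in KO IEC, beside 4.3% and 2.66% of all tested genes. The called genes were Itpr2, an inositol trisphosphate receptor of the calcium store (0.99 ± 0.19, adjusted p = 0.0397), and the receptor chains Il4ra (0.52 ± 0.11, adjusted p = 0.0413) and Il13ra1 (0.66 ± 0.14, adjusted p = 0.0413), through which interleukins 4 and 13 signal. Without KO replicate 4 these log2 fold changes were 0.92, 0.49 and 0.69, with edgeR adjusted p-values of 0.051, 0.0538 and 0.051. Il13ra1 was at 74.1, 81.7, 77.9 and 92.8 CPM in WT and at 106, 124, 162 and 125 CPM in KO IEC crypts, without overlap between the groups. In the same comparison all 7 enterocyte markers had a positive log2 fold change. Their median was 1.56 (1.41 without KO replicate 4), and 0 were called. The part of that shift in the 3 calls was not tested. Per length, Il13ra1 stood at 28.4 CPM per kilobase over the 8 libraries, above the 8.69 of Sh2d6, the highest of the 9 markers. The count of 3 became 0 without any of WT replicates 1, 2 and 3 or KO replicates 2, 3 and 4, and 0 in a fit with mt-Rnr1 and mt-Rnr2 abundance (low, middle or high) as a term, which called 2 of all genes.

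By list, 1 of the 5 tested genes of taste-type signalling was called (Itpr2), 0 of 5 of eicosanoid synthesis, 2 of 5 of the type 2 cytokine circuit (Il4ra, Il13ra1), 0 of 7 regulators and 0 of 19 other markers. The median log2 fold changes were 0.44, 0.84, 0.66, -0.33 and 1.02 in that order, and 0.38, 0.16, 0.49, -0.27 and 0.10 without KO replicate 4. The fall was thus greatest for eicosanoid synthesis and for the other markers. Of the 41 genes, 28 were highest in KO replicate 4, beside 14.5% of all tested symbols, and 19 were at least 3 times the median of the other libraries there, against 1.85% of all tested symbols. Among these were Siglecf (23.3 CPM against at most 3.61), a sialic acid-binding lectin, and Alox5, the 5-lipoxygenase (27.2 against at most 4.24). Of the most abundant genes per length of the lists, Itpr3 (251 CPM in KO replicate 4, 227 to 374 in the others), Lta4h (273 CPM, 217 to 278), Sox9 (35.02 CPM, 33.2 to 73.9) and Sox4 (27.9 CPM, 20.8 to 50.4), as well as Trpm4, Pla2g4a and Il13ra1, stayed within the range of the other libraries, while Cd24a (369 CPM, 139.8 to 323), Ptpn6 (46.1 CPM, 18.1 to 39.1) and Il4ra (57.7 CPM, 34.7 to 57.4) were above it. Several of the other markers, among them Ptprc, Vav1 and Rac2, are also expressed by leukocytes. Ptprc, the pan-leukocyte CD45, was at 30.4 CPM in KO replicate 3 and 30.8 CPM in KO replicate 4.

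**Figure D3:**
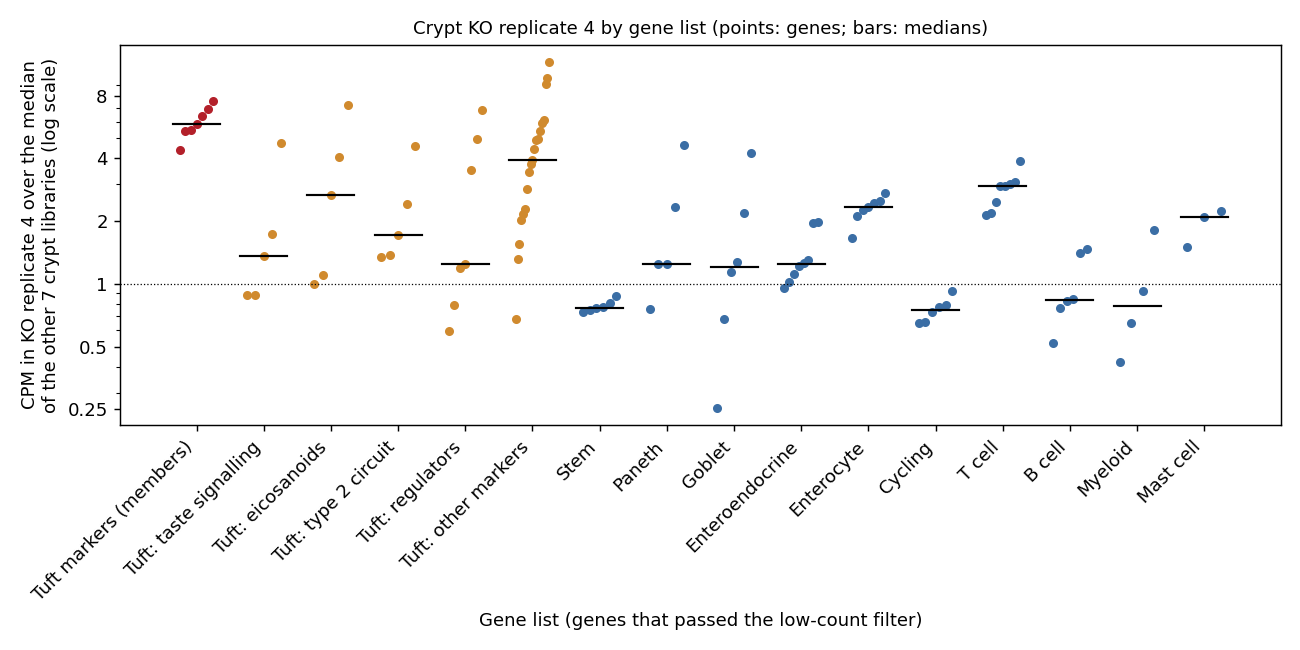
For each tested gene of 16 lists, the CPM in crypt KO replicate 4 over the median of the other 7 crypt libraries (log scale), with a bar at the median of each list. The 7 tuft markers lie between 4.41 and 7.54, and the list medians run from 0.75 for cycling and 0.77 for stem markers to 2.33 for enterocyte, 2.95 for T cell and 3.92 for other tuft markers.

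Among the 8 genes outside the marker set whose log2 CPM over the 8 crypt libraries was most like the mean standardised level of the 7 markers were Rasgef1b (r = 0.99), Lrmp (0.99), Pik3r5 (0.99), Bmx (0.98), Gm7336 (0.98), Alox5 (0.98) and Strip2 (0.97). An r above 0.95 was found for 24 of 13417 genes (0.179%). Of these, Lrmp, Bmx and Alox5 belong to the wider tuft lists. Without KO replicate 4 their values of r lay between 0.59 (Strip2) and 0.96 (Rasgef1b), n = 7 libraries. Gm7336 had the greatest excess in that library, 231 CPM against at most 16.97 CPM elsewhere, but it is annotated as a processed pseudogene and its counts are uncertain where reads are shared with a parent gene.

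The second comparison asked the same of organoids, in which the epithelium grows without its lamina propria. None of the 7 tested markers passed the test in IEC organoids by edgeR, by the DESeq2 Wald test or at an unadjusted p under 0.05. Of all 13938 tested genes 1 was called (0.00717%), Cul4b itself. The median log2 fold change of the 7 markers was 0.27, beside -0.01 over all tested genes, and it was -0.43 without KO replicate 2 and 0.77 without KO replicate 1.

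The KO libraries of this experiment lay on both sides of the WT libraries. Dclk1 was at 10.1 and 8.43 CPM in WT and at 6.87 and 25.4 CPM in KO. Trpm5 was at 10.5 and 11.5 CPM in WT and at 8.80 and 19.0 CPM in KO. Ptgs1 was at 2.94 and 3.72 CPM in WT and at 1.69 and 5.67 CPM in KO. KO replicate 1 was the lowest library for 6 of the 7 markers, Sh2d6 being the exception, and KO replicate 2 the highest for all 7, beside 23.6% and 35.9% of all tested genes. The log2 fold changes were 0.79 ± 0.63 for Dclk1, 0.33 ± 0.42 for Trpm5 and 0.14 ± 0.64 for Ptgs1, and edgeR gave adjusted p-values of 0.856, 0.868 and 0.968.

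The remaining markers had the same spread. Pou2f3 was at 4.38 and 5.38 CPM in WT and at 2.47 and 6.55 CPM in KO. Alox5ap was at 1.44 and 1.39 CPM in WT and at 0.542 and 2.23 CPM in KO. Sh2d6 (5.35 and 2.52 CPM in WT, 3.68 and 5.87 CPM in KO) and Rgs13 (2.99 and 3.58 CPM in WT, 2.47 and 6.89 CPM in KO) also overlapped between genotypes. Their log2 fold changes were between -0.11 for Pou2f3 and 0.51 for Rgs13. Gfi1b (9 and 5 counts in WT, 3 and 7 in KO) and Il25 (0 and 3 counts in WT, 0 and 2 in KO) did not pass the filter. Leaving out KO replicate 1 raised the log2 fold change of Dclk1 to 1.45, and leaving out KO replicate 2 turned it to -0.43. Each of these fits had a single KO library, and the choice of that library set the direction.

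In KO replicate 2 the enteroendocrine, goblet and enterocyte lists were high as well. All 8 enteroendocrine markers and all 6 goblet markers were highest in it, the former summing to 997 CPM against 282 and 514 CPM in WT and 300.1 CPM in KO replicate 1. The Paneth list was not high there, with 0 of 5 markers highest in KO replicate 2. The enterocyte list summed to 12008 CPM (5 of 7 markers highest), against at most 9435 CPM in the other libraries, and cycling markers to 571 CPM, against at least 1469 CPM. Stem cell markers summed to 559 CPM, against 3285 and 4660 CPM in WT and 2156 CPM in KO replicate 1. T cell and myeloid markers were low or at 0 in these cultures: 5 of 8 T cell markers and 4 of 8 myeloid markers had no count in any library, and the T cell list summed to at most 1.55 CPM, with Itgae the most abundant. The mast cell list summed to between 23.2 and 33.7 CPM, nearly all of it Kit, with Cpa3 and Mcpt1 at 0. The part of these shifts in the marker levels was not tested. Of the 40 tested genes of the wider tuft lists 0 were called by edgeR, 5 had an unadjusted p under 0.05 (beside 4.66% of all tested genes), and the DESeq2 Wald test called 0. Their median log2 fold change was 0.24 (-0.28 without KO replicate 2), and 26 were highest in KO replicate 2, beside 35.9% of all tested genes.

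The third comparison was of induced, ubiquitous deletion. In CAG organoids Ptgs1 rose, Pou2f3 was lower without passing the test, and none of the other 5 tested markers passed either. By edgeR 1 of the 7 was called higher and 0 lower, beside 2455 of 13598 tested genes higher (18.1%) and 1823 lower (13.4%), 4278 in all (31.5%). A count of 1 in 7 is under the share called over all genes. The DESeq2 Wald test called 0 of the 9 markers, beside 2554 of the 26255 genes it fitted, and 2 of the 7 had an unadjusted p under 0.05, beside 43% of all tested genes. The median log2 fold change of the 7 was 0.17, beside 0.00 over all tested genes.

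Ptgs1 was at 1.57 and 2.33 CPM in WT and at 3.61 and 4.71 CPM in KO CAG organoids. Both KO libraries were above both WT libraries, and the log2 fold change was 1.11 ± 0.35 with an adjusted p of 0.0333 by edgeR. The call rests on 31 counts in WT and 75 in KO over the 2 libraries of each group. It was lost under the DESeq2 Wald test (adjusted p = 0.233) and in the edgeR fit of all 16 libraries (adjusted p = 0.57), the direction being kept. The log2 fold change was 0.84 without WT replicate 1 and 0.89 without KO replicate 2.

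Pou2f3 was at 8.43 and 5.83 CPM in WT and at 5.14 and 2.98 CPM in KO CAG organoids. The groups did not overlap, and the log2 fold change of -0.86 ± 0.32 had an adjusted p of 0.0678 by edgeR. Pou2f3 passed the edgeR threshold with scaling to library size only (adjusted p = 0.0479) and without a low-count filter (adjusted p = 0.00987). Its log2 fold change was -1.10 without WT replicate 2 and -1.28 without KO replicate 1. Without WT replicate 1 or KO replicate 2 it was -0.57 and -0.48.

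Trpm5 and Sh2d6 were slightly higher in both KO than in both WT libraries. Trpm5 was at 16.9 and 17.8 CPM in WT and at 18.5 and 20.4 CPM in KO, a log2 difference of 0.17 ± 0.15. Sh2d6 was at 7.11 and 7.52 CPM in WT and at 8.48 and 9.04 CPM in KO, a log2 difference of 0.26 ± 0.21. Alox5ap went the other way, with 2.17 and 2.07 CPM in WT and 1.81 and 1.35 CPM in KO (-0.45 ± 0.38). Neither these nor Dclk1 (16.7 and 12.4 CPM in WT, 21.4 and 12.4 CPM in KO) or Rgs13 (5.54 and 3.37 CPM in WT, 5.42 and 2.98 CPM in KO), whose groups overlapped, passed the test, with edgeR adjusted p-values from 0.358 to 0.805. Gfi1b had 4 and 3 counts in WT and 5 and 10 in KO, and Il25 had 0 and 2 counts in WT and 1 and 0 in KO. With 2 libraries against 2, the exact permutation test cannot go below p = 0.333.

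**Figure D4:**
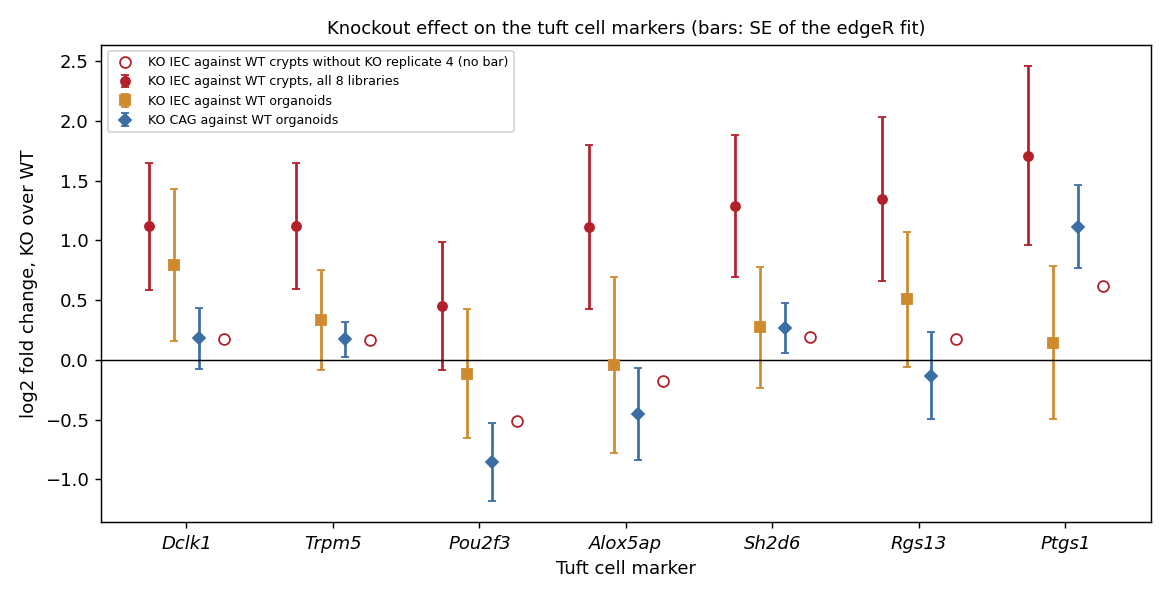
Log2 fold change of KO over WT for the 7 tested markers in the 3 experiments, with bars for the SE of the edgeR fit, and open circles for crypts without KO replicate 4. The crypt values drop from a median of 1.12 to 0.17 when that library is left out, and Ptgs1 in CAG organoids (1.11) is the single value past the threshold.

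In the wider tuft lists 15 of the 37 genes tested in CAG organoids were called, 13 higher (beside 18.1% of all tested genes) and 2 lower (beside 13.4%). The median log2 fold change of the 37 was 0.32. The DESeq2 Wald test called 6 of 54 wider genes, beside 2554 of 26255 genes, and a fit of all 16 libraries called 0 of 46, beside 477 of 15585. In the cascade, Itpr2 (0.62 ± 0.19, adjusted p = 0.0322 by edgeR) and Ffar3, a short-chain fatty acid receptor (1.72 ± 0.56, adjusted p = 0.0390), rose, while Plcb2 did not pass the filter. Among eicosanoid genes Alox5 rose, from 1.81 and 1.81 CPM in WT to 6.81 and 5.19 CPM in KO, and Pla2g4a, the phospholipase that releases arachidonic acid, fell from 63.2 and 69.6 to 46.3 and 55.9 CPM. In the type 2 circuit Il4ra and Il33 rose, Il33 from 0.723 and 0.648 to 5.00 and 2.50 CPM. The 2 POU2F3 coactivator genes moved apart. 1810046K07Rik rose from 5.30 and 6.61 to 14.3 and 12.0 CPM (1.14 ± 0.22, edgeR adjusted p = 0.00315), while Colca2 fell from 23.0 and 22.2 to 9.17 and 11.5 CPM (-1.11 ± 0.17, edgeR adjusted p = 0.000876). In each case the groups did not overlap.

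Of the 18 other tuft markers tested, 7 rose and 0 fell, among them Avil, Ptpn6, Vav1, Siglecf, Rac2 and Reep5. Siglecf went from 0.723 and 0.907 to 2.92 and 2.50 CPM (1.71 ± 0.41). Avil, an actin-bundling protein of the tuft cell's apical bundle, rose by 0.59 ± 0.18 on the log2 scale. T cell markers were low in these cultures, with 5 of 8 at 0 in all 4 libraries and the list at 2.02 CPM or less. Ptprc was at 0 counts in both WT libraries and at 1 and 7 counts in KO. The myeloid list summed to 5.42 and 4.92 CPM in WT and 10.4 and 7.02 CPM in KO, among which Csf1r rose (0.482 and 0.518 to 4.73 and 2.50 CPM), with Adgre1, C1qb and Tyrobp at 0. Of the mast cell list the called genes were Mcpt2 (0 and 0.130 to 1.67 and 1.73 CPM) and Kit (86.6 and 74.4 to 45.9 and 51.2 CPM), with Mcpt1 and Cpa3 at 0. The part of the genes of the T cell, myeloid and mast cell lists, and of Ptprc, in the levels of the tuft lists was not tested. In the same comparison all 8 enteroendocrine, all 6 goblet, all 5 Paneth cell, 6 of 7 enterocyte and 4 of 8 general epithelial markers were called higher, beside 18.1% of all genes, and 3 of 6 stem cell markers and 1 of the 8 epithelial markers (Cdx2) were called lower, beside 13.4%.

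**Figure D5:**
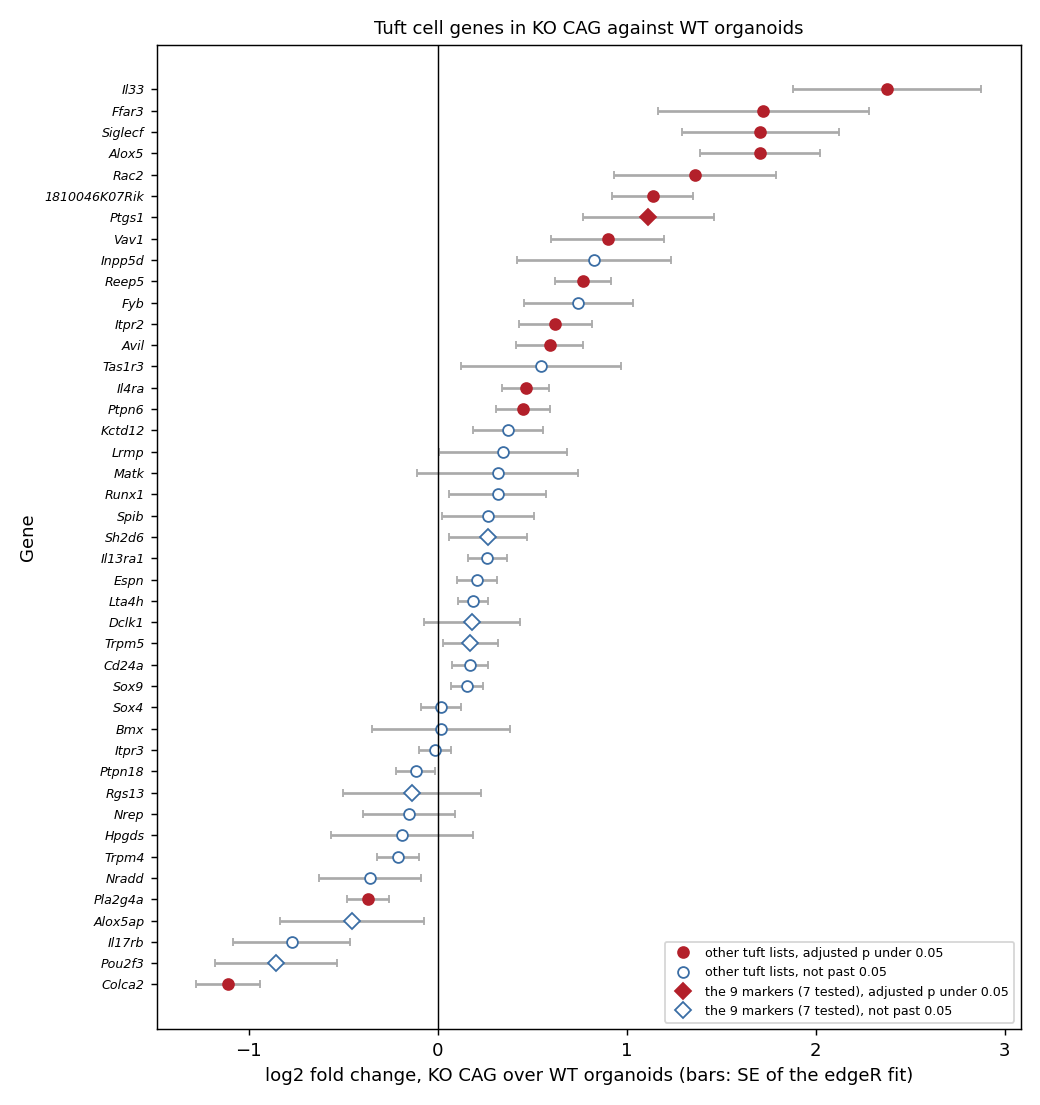
Log2 fold change of KO CAG over WT organoids (bars, SE of the edgeR fit) for the 7 markers (diamonds) and 36 of the 37 tested genes of the wider tuft lists (circles), filled where the adjusted p was under 0.05. The called genes run from Colca2 (-1.11) to Il33 (2.38), and Pou2f3 lies at -0.86.

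Whether the knockout effect on the markers differed between the experiments was tested by the interaction terms of a fit of all 16 libraries over 15585 genes. None of the 8 markers that passed its filter (Il25 did not) was called for crypts against IEC organoids, where 1 gene of all was called (0.00642%), for crypts against CAG organoids, where 58 were called (0.372%), or for IEC against CAG organoids, where 60 were called (0.385%). At an unadjusted p under 0.05 none of them passed either, and no other tool was run on this test. The smallest adjusted p of a marker was 0.548, for Pou2f3 between crypts and CAG organoids, a log2 difference of 1.30 ± 0.88 that became 0.32 ± 0.55 without crypt KO replicate 4. The widest differences, 1.66 ± 1.19 for Gfi1b between crypts and IEC organoids and 1.56 ± 1.17 for Alox5ap between crypts and CAG organoids, had standard errors of similar size, and leaving out crypt KO replicate 4 took that of Alox5ap to 0.27 ± 0.73 and Dclk1 between crypts and IEC organoids from 0.30 ± 0.91 to -0.65 ± 0.61.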

How the data were processed

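RNA-seq libraries of 8 crypt and 8 organoid samples were analysed from 3 tables of raw read counts per gene, which the authors deposited without normalization. The submitters' processing notes name HISAT2 2.0.5 and featureCounts 1.5.0-p3; gene positions in the tables match GENCODE M21 (GRCm38), except for small differences at Sh2d6. Groups came from the sample labels. Genes were filtered by expression (filterByExpr), scaled by TMM and tested in each experiment with edgeR 4.0.16 (quasi-likelihood test, R 4.3.3, limma 3.58.1), with p-values adjusted by Benjamini-Hochberg over all genes tested and calls at an adjusted p under 0.05. SE was the absolute log2 fold change over the square root of F. Single values were compared by exact two-sided permutation of library labels (scipy 1.17.1). The test was checked on simulated data. Alternatives were other scaling, filters and a fold threshold of 2, DESeq2 1.42.0 (Wald test), a replicate block, a mitochondrial ribosomal RNA covariate, all 16 libraries in 1 fit and omission of each library. The replicate 4 omission, the interaction without crypt KO replicate 4 and the counts of wider tuft genes were added after seeing the data.

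The markers and gene lists were chosen with earlier results of these data known. Named genes were Cul4b, the 9 markers, at most 5 called genes per direction and the 2 most abundant genes of each list, and the 8 genes most like the markers; other genes named were chosen after their values were seen. Promoter windows were from RefSeq (GRCm38.p6) and matched 6 of 9 markers and 47 of 61 wider genes. The limit of 3 counts covers counting error only. A gene of the wider tuft lists is counted but not reported here by name.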

Additional observations from a re-analysis of the deposited data

Results flagged for a closer look

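Among 62 groups of 4 crypt libraries examined, 11 had a library separated from the other 3 by more than Dixon's 95% limit, where chance gives about 1 in 20. Of these, 9 were tuft values of KO IEC replicate 4. They were Dclk1 (53.9 CPM), Trpm5 (75.4 CPM), Pou2f3 (10.6 CPM), Alox5ap (11.7 CPM), Sh2d6 (55.7 CPM), Rgs13 (24.2 CPM) and Ptgs1 (9.56 CPM), together with the sum of the 9 markers (242.8 CPM) and the sum of the other tuft markers (1056 CPM). These values come from the same library and are not independent of each other. The other 2 were WT replicate 1, in which the mast cell list summed to 105.2 CPM and the myeloid list to 21.1 CPM.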

How the results depend on the processing

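In crypts no marker was called under any alternative, and leaving out KO replicate 4 turned Pou2f3 to -0.51 and Alox5ap to -0.18 (-0.53 and -0.055 without both replicate 4 libraries), within ranges of -0.51 to 0.69 and -0.18 to 1.46 over the omission of each library. The count of all called genes in crypts was 934, and it was 240 with a fold threshold of 2, 1479 without a filter, 2355 with DESeq2, 4 with the replicate block, 2 with the mitochondrial ribosomal RNA class, 1659 with all 16 libraries and 1445 without both replicate 4 libraries. Leaving out 1 library gave 2 to 2468. Scaling to library size only called 635 genes, 324 higher and 311 lower, against 577 and 357. The wider tuft genes called in crypts (3) were 0 with the fold threshold, 5 without a filter, 6 with DESeq2, 0 with the block, 0 with the mitochondrial class and 0 to 8 without 1 library.

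In IEC organoids the 1 called gene became 223 without a filter, 26 with DESeq2, 18 with all 16 libraries and 0 to 2322 without 1 library. The called markers then numbered 0 to 1 and the wider genes 0 to 9 (2 without a filter). Without KO replicate 2 the log2 fold changes were -0.43 for Dclk1, -0.33 for Trpm5, -0.10 for Sh2d6, -0.41 for Rgs13 and -0.97 for Ptgs1. Without KO replicate 1 Pou2f3 was 0.42 and Alox5ap 0.65, without WT replicate 1 Ptgs1 was -0.02, and without WT replicate 2 Pou2f3 was 0.02 and Sh2d6 -0.18. Over these omissions the ranges were -1.37 to 0.65 for Alox5ap, -0.43 to 1.45 for Dclk1, -0.98 to 0.42 for Pou2f3, -0.97 to 0.77 for Ptgs1, -0.41 to 1.06 for Rgs13, -0.18 to 0.92 for Sh2d6 and -0.33 to 0.78 for Trpm5.

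In CAG organoids the 4278 called genes became 1169 with the fold threshold, 2554 with DESeq2, 477 with all 16 libraries and 2789 to 5177 without 1 library. The called markers (1) were 2 with library size only, without a filter and with the replicate block, 0 with DESeq2 and with all 16 libraries, and 0 to 2 without 1 library. The wider genes (15) were 8 with the fold threshold, 6 with DESeq2, 0 with all 16 libraries and 7 to 16 without 1 library. Dclk1 was -0.02 without WT replicate 2 and -0.26 without KO replicate 1 (range -0.26 to 0.54). Rgs13 was 0.27 without WT replicate 1 or KO replicate 2 (range -0.60 to 0.27).

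Same-numbered libraries did not deviate together throughout, with correlations of -0.04, 0.19, -0.40 and 0.43 in crypts, 0.34 in IEC organoids and 0.07 in CAG organoids, so the numbers were not taken as pairs. With the replicate block Ptgs1 in IEC organoids was -0.058 and Pou2f3 in CAG organoids was -0.83 (edgeR adjusted p = 0.0241). Where an omission left 1 library in a group, that library was assumed to vary like the other group. The causes of these changes were not tested. Gfi1b and Il25 were at 14 counts or fewer in every library, and whether depth or low abundance limited them was not tested.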
